A study of Homo sapiens with 22 samples.

Results

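After COP1 siRNA, 249 genes changed one way in the liver cancer lines Huh7 and Hep3B and the other way in HepG2, of 16922 gene symbols on the array and 11087 measured above the floor described here. Of the 249, 212 were lower in HepG2 and higher in the other lines, and 37 were higher in HepG2 and lower in the others. They were chosen by their own values, on y, the log2 of each probe's deposited intensity with values under 32 set to 32. A probe was kept where the mean of y after COP1 siRNA differed from that after control siRNA by at least 0.3 in each line, with HepG2 opposite to both others. In HepG2 and in Hep3B, moreover, no COP1 siRNA array was to overlap the control arrays, and the brightest kept probe stood for its symbol. The rule kept 288 probes, of which 33 carried no symbol and were left out, 29 of these lower and 4 higher in HepG2. The size, the direction and, in HepG2 and Hep3B, the separation of the changes were thus set by the choice, and are given here as a description with no test.

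Huh7, HepG2 and Hep3B are human liver tumour lines grown in DMEM/F-12 with serum. Each line was transfected with a COP1 siRNA or with a negative control siRNA at 15 nM, and its total RNA was read after 48 h on HumanRef-8 v3 arrays of Illumina. Each siRNA had 3 arrays in Huh7, 4 in HepG2 and 4 in Hep3B, 22 in all. All cells were transfected, no untreated cells were among the arrays used, and with 1 COP1 siRNA an effect of the sequence itself cannot be told apart from loss of COP1. Whether replicates were separate cultures is not stated in the labels, so spreads and p-values refer to these samples and may be technical. In such bulk RNA, fewer cells of a type and less RNA per cell cannot be told apart.

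COP1 is a RING-type ubiquitin ligase that marks transcription factors for degradation, among them c-Jun and ETS factors of the PEA3 group. A gene whose RNA follows such a factor can change after loss of the ligase, and so can genes further downstream, among them those of the cell cycle and of protein synthesis. Liver tumour lines differ in how much of the hepatocyte programme they retain.

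COP1 RNA was lower after its siRNA in every line. On the log2 scale Huh7 lost 2.69, HepG2 1.95 and Hep3B 2.21, which left 15.5%, 25.8% and 21.8% of the control level (limma, adjusted p = 7.1e-12, 1.2e-10 and 1.1e-10). The hepatocyte genes ALB, APOA1, APOB, TTR and FOXA2 were above 32 on all 6 Huh7 arrays and all 8 HepG2 arrays, and on 0 of the 8 Hep3B arrays. SERPINA1 and AFP were above 32 on all 22, but far lower in Hep3B. In the controls AFP was at 6.57 in Hep3B, 13.78 in Huh7 and 14.32 in HepG2, and SERPINA1 at 6.18, 10.94 and 14.54. Between 11391 and 11409 probes per array exceeded 32. Huh7 COP1 siRNA replicate 3 stood apart from the rest. Its root mean square deviation from its group over the 14700 probes tested was 0.54 on the log2 scale, against 0.16 to 0.36 on the other arrays. Without that array the rule gave 161 genes, 159 of them among the 249. The Huh7 change of 160 of the 249 moved by more than 1.5 times, 150 of the 212 and 10 of the 37. Huh7 changes of named members that moved by so much are given again without the array in the same paragraph, while Huh7 medians over groups and families of genes include it.

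The promoters of the leading gene of each class and of a pair of neighbouring members are shown first, because the members are described as genes that move together and their regulatory sequence is where such genes could share features. CXCL8 and ALDH3B1 had the largest smallest change over the 3 lines within their class. DHX29 and MTREX, both lower in HepG2, lie head to head on chromosome 5 with 294 bases between them, so that the 200 bases upstream of MTREX lie within the stretch that separates both genes. The sequences are RefSeq's of GRCh38.p14, the 200 bases before each gene's start, written along the gene's own strand from 5′ to 3′, with matches to the motifs searched in capitals.
CXCL8, plus strand, chr4:73740369-73740568: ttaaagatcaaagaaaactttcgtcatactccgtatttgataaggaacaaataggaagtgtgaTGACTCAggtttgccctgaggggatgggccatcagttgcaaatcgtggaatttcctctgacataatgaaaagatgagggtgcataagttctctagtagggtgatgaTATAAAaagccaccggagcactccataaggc
MTREX, plus strand, chr5:55307789-55307988: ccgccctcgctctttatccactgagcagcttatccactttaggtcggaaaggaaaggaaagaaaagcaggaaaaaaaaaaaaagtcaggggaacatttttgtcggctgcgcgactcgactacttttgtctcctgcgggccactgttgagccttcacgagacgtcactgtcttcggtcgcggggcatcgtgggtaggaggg
ALDH3B1, plus strand, chr11:68008347-68008546: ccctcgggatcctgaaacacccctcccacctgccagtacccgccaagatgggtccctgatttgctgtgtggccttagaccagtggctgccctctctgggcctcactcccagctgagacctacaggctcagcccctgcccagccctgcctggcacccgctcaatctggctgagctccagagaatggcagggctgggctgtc
The capitals in the CXCL8 promoter mark TGACTCA, a match to the AP-1 site TGANTCA at -137, and TATAAA, the TATA box at -31, counted from the gene's start. The other sequences held no match to any of the 12 motifs searched. AP-1 sites are bound by dimers of c-Jun, and a match describes letters and not binding.

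Across all members with a RefSeq promoter window, 186 lower in HepG2 and 31 higher in HepG2, the motif shares were set beside those of the 9134 genes tested that had a window. The windows run from 250 bases before to 50 bases after the start, both strands were searched, and motifs were allowed to overlap. The CCAAT box, CCAAT, was in 41.9% of the windows of genes lower in HepG2, in 32.3% of those higher in HepG2 and in 37.2% of all. TGANTCA was in 5.91%, 3.23% and 4.59%. The ETS site CCGGAAGT was in 11.3%, 6.45% and 8.51%, and the E2F site TTTCCCGC in 4.84%, 6.45% and 2.59%. TATAAA was in 9 of the 186 windows and 0 of the 31, against 6.24% of all. No test was made of these shares.

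As a group, the 212 genes lower in HepG2 changed by about as much in each line. Their median change was 0.69 on the log2 scale in Huh7, -0.63 in HepG2 and 0.67 in Hep3B, where a log2 difference of 1 is a 2-fold difference. The 37 genes higher in HepG2 had medians of -0.94, 0.58 and -0.53. The median over all 14700 probes tested was 0 in each line. In the model fitted to all probes, 138 of the 212 were called lower in HepG2, where 10.8% of all probes were. The calls in the other lines were 134 of 212 higher in Huh7, against 17.3% of all probes, and 151 of 212 higher in Hep3B, against 10.2%. Of the 37, 24 were called higher in HepG2 against 10.2% of all probes, 30 lower in Huh7 against 15.4%, and 23 lower in Hep3B against 9.78%. Since the rule used these contrasts, nothing is read from the counts.

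**Figure D1:**
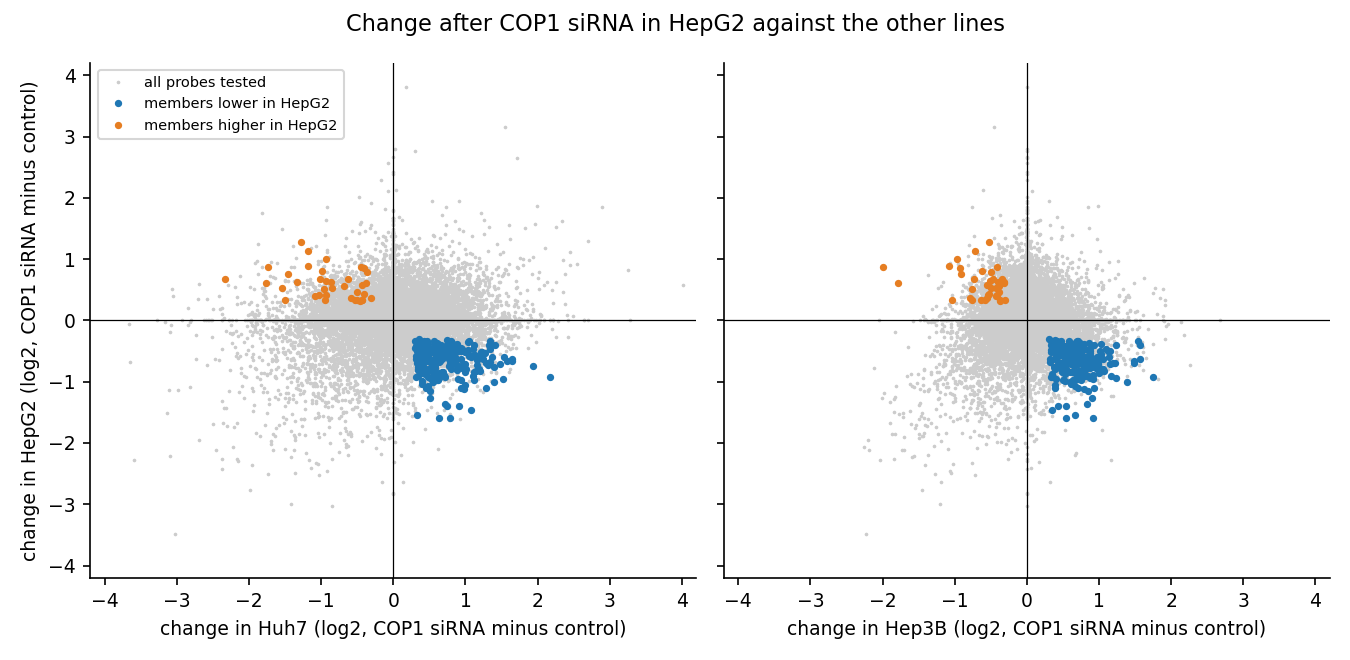
Each point is a probe, with its mean log2 change after COP1 siRNA in HepG2 on the vertical axis and in Huh7 (left) or Hep3B (right) on the horizontal axis. The 212 members lower in HepG2 (blue) fill the lower right of both panels and the 37 higher in HepG2 (orange) the upper left, as the rule requires, while the cloud of all probes tested (grey) has r = 0.13 with Huh7 and r = 0.03 with Hep3B.

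The changes of HepG2 ran less with those of the other lines over the whole array, too. Across the 14700 probes, the changes in Huh7 and Hep3B had a Pearson correlation of 0.40, those in Huh7 and HepG2 one of 0.13, and those in HepG2 and Hep3B one of 0.03. These describe 3 sets of arrays that share a platform and a normalization, and probes are not independent. With the same rule but Huh7 as the opposite line, 22 genes were kept, and with Hep3B 65. A further 385 genes moved the same way in all 3 lines, 309 lower and 76 higher. The largest change of a gene was in Huh7 for 95 of the 212 and 21 of the 37, and in HepG2 for 55 and 7.

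Separation of the arrays in Huh7 was not part of the rule. There the COP1 siRNA and control arrays did not overlap for 114 of the 212 and 25 of the 37, together 139 of 249 or 55.8%, where 31.9% of all probes tested did not overlap. The rule had already asked for a difference of means in Huh7, which raises that share by itself.

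Averaged over its genes, each class separated all arrays of all 3 lines. In HepG2 and Hep3B the rule fixed that outcome gene by gene, and small spreads there favour selection. For Huh7 the difference of means that the rule asked for favours it, so nothing is read from the separation. The class of 212 had a mean level of 9.08, 9.33 and 10.16 on the Huh7 COP1 siRNA arrays, against 8.93, 8.77 and 8.60 on the controls. The HepG2 means were 8.18 ± 0.03 with the COP1 siRNA and 8.86 ± 0.17 with the control, and those of Hep3B 9.22 ± 0.08 and 8.52 ± 0.07 (SD, n = 4). The arrays of HepG2 and Hep3B formed tight groups, while those of Huh7 after COP1 siRNA spread over more than a log2 unit. For the class of 37, the Huh7 COP1 siRNA arrays were at 7.69, 7.40 and 6.99, and the controls at 8.16, 8.20 and 8.42. Its mean in HepG2 was 8.93 ± 0.11 and 8.33 ± 0.05, and in Hep3B 7.48 ± 0.06 and 8.12 ± 0.07 (SD, n = 4).

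**Figure D2:**
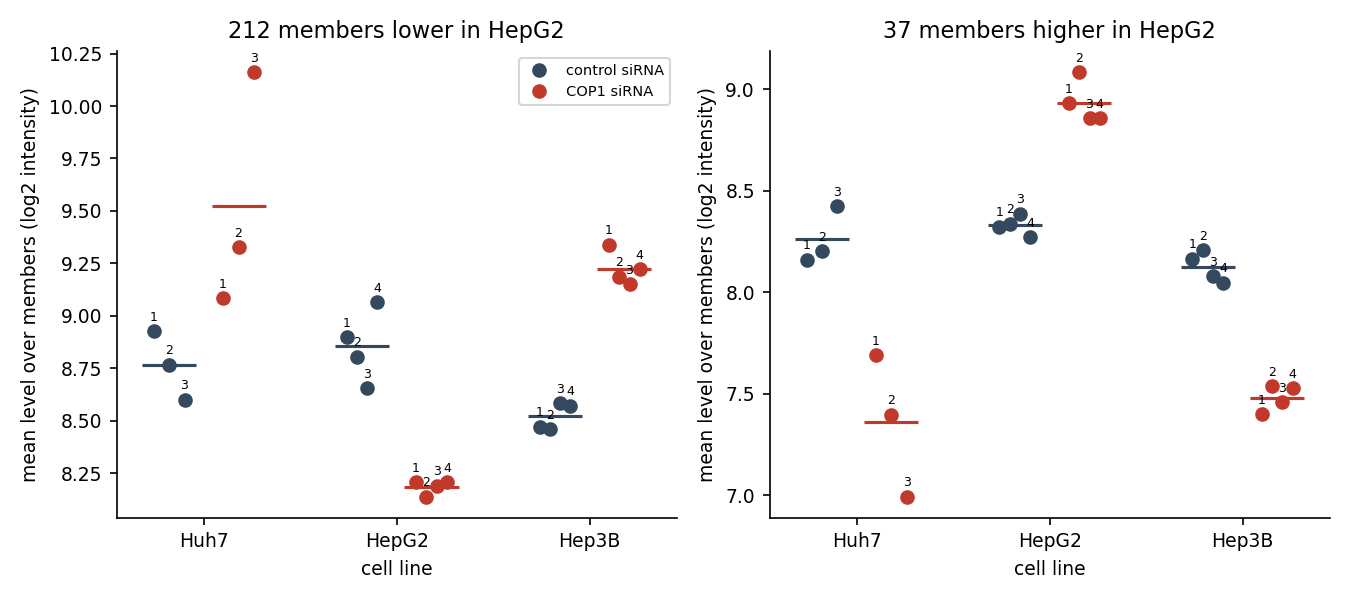
Points are arrays, numbered by replicate, with the mean log2 intensity over the 212 members lower in HepG2 (left) or the 37 higher in HepG2 (right) on the vertical axis and the line on the horizontal axis. Bars are group means, and the arrays of the siRNA groups (red for COP1, dark for control) do not overlap in any line. The rule fixed this in HepG2 and Hep3B and favoured it in Huh7. Huh7 COP1 siRNA replicate 3, at 10.16 and 6.99, is the farthest from its controls in both panels.

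The classes also moved against each other between replicates of a group, which the rule did not set directly, although a high or low array shifts the means that the rule used. On 21 of the 22 arrays, the class of 212 and the class of 37 deviated from their group means in opposite directions. Some of these deviations were near 0, such as 0.02 and -0.001 on HepG2 COP1 siRNA replicate 1. On Huh7 COP1 siRNA replicate 3 the deviations were 0.64 and -0.37, and on replicate 1 of that group -0.44 and 0.33. Of the 210 genes lower in HepG2 that were above 32 on all 3 arrays of that group, 199 were highest on replicate 3, or 94.8%, where 50.1% of the probes tested were. Among the genes lower in HepG2, the HepG2 controls showed the same on a smaller scale. Replicate 4 held the highest value for 140 of 212 genes, or 66%, against 24.1% of the probes tested, and replicate 3 the lowest for 142, or 67%, against 24.4%. In the Huh7 controls, replicate 1 was highest for 150 of 199, or 75.4%, against 32.5%. For the class of 37, HepG2 control replicate 4 was lowest for 16 of 36, or 44.4%, against 25.9%. HepG2 control replicate 3 was highest for 11 of 36 in that class, or 30.6%, near the 28.1% of the probes tested. Huh7 control replicate 1 was lowest for 21 of 36, or 58.3%, against 36.5%. What these replicates share with the effect of the siRNA was not tested.

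Leaving out Huh7 COP1 siRNA replicate 3 lowered the median Huh7 change of the 212 from 0.69 to 0.37, and that of the 37 from -0.94 to -0.71. In all, 15 of the 249 then turned sign in Huh7 and 88 were under 0.3. With the array left out, the named members that turned were ZBTB33, HERC4, WDHD1, ID3 and NSUN5. The direction in HepG2 and Hep3B does not rest on that array.

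**Figure D3:**
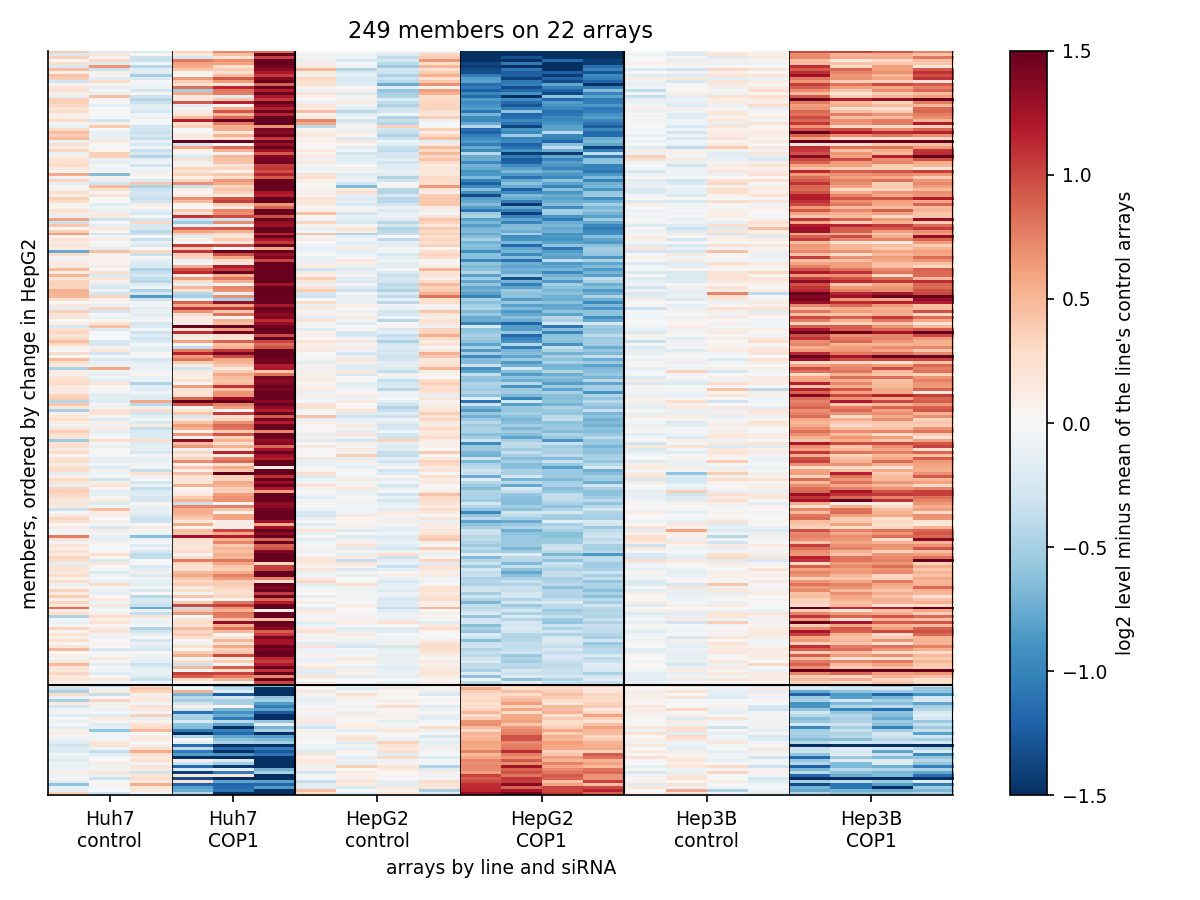
Rows are the 249 members ordered by their change in HepG2, columns the 22 arrays by line and siRNA, and colour the log2 level minus the mean of the same line's control arrays (scale from -1.5 to 1.5). The 212 rows above the line are blue in the HepG2 COP1 siRNA arrays and red in those of Huh7 and Hep3B, the 37 below are the reverse, and the third Huh7 COP1 siRNA column is the darkest.

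By function, 164 of the 249 members were placed in 14 role groups, 145 of them lower and 19 higher in HepG2. These groups were drawn up after the values were seen, so their counts and medians describe the list and were not tested. Splicing and RNA binding held 30 members, chromatin and transcription 18, the spindle and condensin 17, translation and ribosome assembly 15, DNA replication and repair 13, and the secretory pathway 13.

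Signalling genes and cell surface receptors were led by CXCL8, the neutrophil-attracting chemokine interleukin-8. On the Huh7 arrays CXCL8 measured 13.98, 14.30 and 14.85 after COP1 siRNA and 12.13, 12.36 and 12.12 after control siRNA. In HepG2 it was at 6.96, 6.87, 6.62 and 7.14 against 7.88, 7.98, 7.75 and 7.66. The Hep3B values were 10.13, 10.29, 10.24 and 9.88 against 8.28, 8.34, 8.40 and 8.52. The groups did not overlap in any line, and the changes were 2.17, -0.92 and 1.75, the largest in Huh7 and in Hep3B among the 212. Its promoter is the one printed above with an AP-1 site and a TATA box. CXCL8 also stood in a list of NF-kB targets and chemokines, and no NF-kB motif was among the 12 searched.

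FST, the secreted activin inhibitor follistatin, had changes of 1.58 in Huh7, -0.67 in HepG2 and 0.74 in Hep3B. Its Hep3B control arrays were at the floor of 5, which is log2 of 32, except for 5.17 on replicate 2. The Huh7 controls were at 5.00, 5.69 and 5.04, so the FST changes in both lines depend on the floor. A brighter FST probe changed by 0.26, -0.69 and 0.39, with the same signs but under 0.3 in Huh7. ITGB1, the beta-1 integrin subunit, changed by 0.57, -0.73 and 0.53, and IFNGR1, a chain of the interferon-gamma receptor, by 1.03, -0.35 and 0.68. CHUK, a kinase that activates NF-kB, changed by 0.43, -0.88 and 0.53. Without Huh7 COP1 siRNA replicate 3, the Huh7 changes of ITGB1 and CHUK were 0.07 and 0.13. HEY1, a repressor induced by Notch, was at 9.10, 9.17, 9.23 and 9.44 in HepG2 against 9.56, 9.77, 9.67 and 9.87. In Huh7 and Hep3B HEY1 was no higher than 5.81 on any array.

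Among RNA processing genes were the largest drops in HepG2. DDX46, an RNA helicase of the spliceosome, measured 5.25, 5.35, 5.00 and 5.26 in HepG2 after COP1 siRNA against 6.79, 6.84, 6.86 and 6.75. In Hep3B it was at 8.73, 8.77, 8.67 and 8.48 against 7.75, 7.63, 7.83 and 7.79. Its Huh7 arrays overlapped, at 8.52, 8.91 and 9.01 against 8.56, 8.03 and 7.98. The change in HepG2 was -1.59. MATR3, which encodes the nuclear matrix and RNA-binding protein matrin 3, had a change of -1.59 there as well, from 11.25 ± 0.22 to 9.66 ± 0.05 (SD, n = 4). The Hep3B change of MATR3 was 0.55. In Huh7 it was 0.79, with one array at 11.77 and the others at 10.15 and 10.46 against controls of 9.77 to 10.20, so that the groups overlapped, and 0.30 without replicate 3.

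Further splicing factors had smaller changes in HepG2, and larger ones than DDX46 and MATR3 in Huh7. PNN, a splicing-associated protein of nuclear speckles, had changes of 1.39 in Huh7, -0.998 in HepG2 and 0.60 in Hep3B, and SREK1 of 1.19, -0.79 and 1.05. ZRANB2, a zinc finger splicing factor, changed by 1.65, -0.64 and 0.87. A second ZRANB2 probe had -0.02, -0.42 and 0.40, with no rise in Huh7. Of 24 genes tested whose symbol begins with HNRNP, the heterogeneous nuclear ribonucleoproteins, 5 were members: HNRNPA1, HNRNPA2B1, HNRNPD, HNRNPH3 and HNRNPR. The medians over all 24 were 0.34 in Huh7, -0.24 in HepG2 and 0.21 in Hep3B, with 18 below 0 in HepG2. In HepG2 the DEAD-box and DEAH-box helicases did not share this, with a median of 0 over 44 DDX and DHX genes and 20 below 0. Their medians in Huh7 and Hep3B were 0.48 and 0.02. Members were 5 of the 44, against 249 of the 11087 genes tested. Among 12 SRSF splicing factors, 1 was a member, SRSF6, and 10 were below 0 in HepG2, with a median of -0.31. The medians and counts of these families include their members, whose signs were set by the rule, and were not tested. Over all probes tested the median change in HepG2 was 0.

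Several mitotic genes were members, all of those named here lower in HepG2. KIF11, the motor that pushes spindle poles apart, measured 8.33, 8.65 and 9.64 in Huh7 after COP1 siRNA against 7.56, 7.22 and 6.91. In HepG2 it was at 7.82, 7.82, 7.39 and 7.85 against 8.44, 8.13, 8.26 and 8.72. In Hep3B it was at 10.08, 9.94, 9.72 and 10.11 against 8.25, 8.53, 8.61 and 8.51. The siRNA groups of KIF11 were apart in every line, with changes of 1.64, -0.67 and 1.49. CENPF, a kinetochore protein, changed by 0.51, -1.27 and 0.90, TOP2A, the topoisomerase that disentangles chromosomes, by 0.55, -0.98 and 0.50, and NUSAP1, a spindle protein, by 0.36, -0.31 and 0.31. PLK4, the kinase that starts centriole duplication, changed by 1.29, -1.11 and 0.71. Over the 17 spindle and condensin members the medians were 0.65, -0.67 and 0.54. In Huh7 the arrays of CENPF and TOP2A overlapped. Without Huh7 COP1 siRNA replicate 3, the Huh7 changes were 0.17 for CENPF, 0.24 for TOP2A and 0.04 for NUSAP1, and 1.26 for KIF11.

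Those 4 members, KIF11, CENPF, TOP2A and NUSAP1, were also the members in a list of 30 genes of G2/M and mitosis. Among the other 26 genes of that list, the response of HepG2 was below the mean response of the other lines in 10 and above it in 1 (limma, adjusted p under 0.05 over all probes), where 15.7% and 13.9% of all probes were, or 29.6% in either direction. In HepG2 itself 5 of the 26 fell and 1 rose, in Huh7 2 fell and 8 rose, and in Hep3B 2 fell and 3 rose, with medians of -0.16, 0.36 and 0. KIF23, a motor of cytokinesis, rose by 0.87 ± 0.24 (SE) in Huh7 and fell by 1.14 ± 0.21 in HepG2 (limma, adjusted p = 0.0082 and 0.0004), while its Hep3B value of -0.11 did not pass. CDK1, the kinase that starts mitosis, rose by 0.73 ± 0.21 in Huh7 and fell by 0.69 ± 0.18 in HepG2 (limma, adjusted p = 0.011 and 0.0087), with 0.41 in Hep3B (adjusted p = 0.13). Without Huh7 COP1 siRNA replicate 3 the Huh7 values were 0.46 for KIF23 (limma, adjusted p = 0.048) and 0.57 for CDK1, which then did not pass (limma, adjusted p = 0.059). CDC25B, a phosphatase that activates that kinase, went the other way, 0.47 ± 0.11 in HepG2 and -0.50 ± 0.11 in Hep3B (limma, adjusted p = 0.0026 and 0.0017). A list of 28 genes of G1/S and DNA replication held no member, where 249 of the 11087 genes tested were members. In it the response of HepG2 was lower in 12 and higher in 0. By limma, 11 of the 28 fell in HepG2 and 0 rose, 2 fell and 10 rose in Huh7, and 4 fell and 1 rose in Hep3B, with medians of -0.26, 0.34 and -0.12. Over all probes HepG2 had 10.8% falls and 10.2% rises, Huh7 15.4% and 17.3%, and Hep3B 9.78% and 10.2%.

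In DNA replication and repair, POLQ, the polymerase of end joining by microhomology, changed by 0.91, -1.40 and 0.43. POLQ was at 6.07, 6.39, 5.72 and 6.03 in HepG2 after COP1 siRNA against 7.57, 7.47, 7.05 and 7.73. TOPBP1, which activates the ATR checkpoint kinase, changed by 0.71, -1.36 and 0.83, and MSH6, a mismatch repair protein, by 0.58, -0.88 and 0.34. MRE11, a nuclease at double-strand breaks, changed by 0.48, -1.07 and 0.67, and its Huh7 arrays of 5.69, 7.01 and 7.39 overlapped the controls of 6.45, 6.25 and 5.94. RECQL, a DNA helicase, changed by 1.11, -0.91 and 0.84 and was apart in all 3 lines. Without Huh7 COP1 siRNA replicate 3, the Huh7 changes were 0.39 for TOPBP1, 0.33 for MSH6, 0.14 for MRE11 and 0.71 for RECQL.

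Chaperones of the cytosol and of the endoplasmic reticulum were among the 212. HSP90B1, which encodes the endoplasmic reticulum chaperone GRP94, was at 12.19, 11.70, 11.81 and 12.00 in HepG2 against 12.94, 12.73, 12.83 and 13.07. The Hep3B values were 13.83, 13.77, 13.68 and 13.78 against 13.04, 12.81, 13.18 and 13.05. In Huh7 HSP90B1 measured 13.17, 13.47 and 14.12 against 13.05, 12.96 and 12.92. No group overlapped, and the changes were 0.61 in Huh7, -0.97 in HepG2 and 0.75 in Hep3B. DNAJC3, an inhibitor of the kinase PERK, changed by 0.52, -0.96 and 0.41. HSPA4, a cytosolic co-chaperone, changed by 1.93, -0.75 and 0.65. The Huh7 change of HSP90B1 was 0.35 without replicate 3 of the COP1 siRNA.

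Among the 25 other tested genes of the unfolded protein response and ATF4 list, Huh7 had 14 falls and 1 rise, HepG2 6 falls and 3 rises, and Hep3B 3 falls and 2 rises (limma, adjusted p under 0.05). The corresponding shares of all probes were 15.4% and 17.3%, 10.8% and 10.2%, and 9.78% and 10.2%. NUPR1, a stress-induced regulator, fell by 3.66 ± 0.19 in Huh7 (SE, limma, adjusted p = 2.4e-11) with -0.05 in HepG2 and 0 in Hep3B. PHGDH, the first enzyme of serine synthesis, fell by 1.66 ± 0.14 in Huh7 (limma, adjusted p = 1.8e-08) with values of 0.20 and -0.17 in the others. SLC7A5, an amino acid transporter, rose by 0.31 ± 0.09 in HepG2 and fell by 0.89 ± 0.09 in Hep3B (limma, adjusted p = 0.018 and 7.3e-07). Members on this list thus went in both directions, since DDIT4 belonged to the 37.

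Translation, nuclear transport and vesicle traffic made up further groups of the 212. EIF5B, which joins the ribosomal subunits, changed by 1.10, -0.46 and 1.10, and DHX29, a helicase of initiation, by 0.72, -0.92 and 0.77. KPNA4, an importin alpha, changed by 0.89, -0.80 and 0.77 and TNPO1, the import receptor transportin, by 0.79, -0.69 and 0.67. The 8 genes of nuclear pore and transport had medians of 0.91, -0.60 and 0.67. Of the SRP, the particle that carries nascent secretory proteins to the endoplasmic reticulum, SRP54 changed by 0.67, -0.62 and 0.73 and SRP72 by 0.53, -0.50 and 0.74. LAMP2, a lysosomal membrane protein, changed by 1.54 in Hep3B, from 9.70 ± 0.10 to 11.24 ± 0.04 (SD, n = 4), with 0.46 in Huh7 and -0.34 in HepG2. Other LAMP2 probes did not fall in HepG2. One had -0.05 in Huh7, 0.15 in HepG2 and 0.48 in Hep3B, and another 0.14, 0.20 and 0.56. Without Huh7 COP1 siRNA replicate 3, the Huh7 changes were 0.33 for DHX29, 0.56 for KPNA4, 0.29 for SRP54, 0.18 for SRP72 and 0.14 for LAMP2.

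Transcription regulators in this class included DEK, a chromatin protein, with changes of 1.20, -0.82 and 0.74, and BCLAF1, a nuclear factor of transcription and splicing, with 1.14, -0.83 and 1.07. The BCLAF1 arrays did not overlap in any line, at 11.15, 11.39 and 12.25 against 10.81, 10.45 and 10.11 in Huh7. ZBTB33, the methyl-CpG-binding protein Kaiso, changed by -1.55 in HepG2, from 9.60 ± 0.31 to 8.05 ± 0.17 (SD, n = 4), and by 0.66 in Hep3B. In Huh7 its arrays of 9.24, 9.74 and 10.53 overlapped the controls of 9.86, 9.47 and 9.19, and the change of 0.33 became -0.02 without replicate 3. Without that array DEK changed by 0.75 in Huh7. NFE2L2, which encodes the oxidative stress factor NRF2, changed by 0.68 (0.26 without replicate 3), -0.84 and 0.49. No gene of a list of 21 tested NRF2 targets and glutathione enzymes was a member, where 249 of the 11087 genes tested were. In that list the response of HepG2 was below the mean response of the other lines in 6 and above it in 4. Of all probes 15.7% and 13.9% were (limma, adjusted p under 0.05).

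The 37 genes higher in HepG2 held several stress and transcription regulators. DDIT4, an inhibitor of mTORC1 induced by stress, measured 11.78, 11.94, 11.73 and 11.54 in HepG2 after COP1 siRNA against 10.83, 10.98, 10.88 and 10.81. In Huh7 it was at 9.31, 9.01 and 8.40 against 10.69, 10.32 and 10.92. In Hep3B it was at 5.98, 7.06, 6.79 and 6.51 against 8.63, 8.80, 8.57 and 8.32. DDIT4 was apart in all 3 lines, with changes of -1.74 in Huh7, 0.87 in HepG2 and -2.0 in Hep3B. CITED4, a coactivator that binds CBP and p300, changed by -1.76, 0.62 and -1.79. FOXD2, a forkhead factor, changed by -1.19, 0.89 and -1.08, with all 3 Huh7 COP1 siRNA arrays at the floor. ID3, an inhibitor of helix-loop-helix factors, changed by 0.86 in HepG2 and -0.93 in Hep3B. Its Huh7 change of -0.40 came from 10.14 on replicate 3, where the others were at 11.90 and 11.91 against controls of 11.62 to 11.90. Without replicate 3 of the COP1 siRNA, the Huh7 change of ID3 was 0.19.

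Beside ID3 and FST, the other 22 tested genes of the growth factor and TGF-beta list fell in 14 cases and rose in 1 in Huh7. For HepG2 the counts were 2 falls and 1 rise, and for Hep3B 7 falls and 1 rise (limma, adjusted p under 0.05). Over all probes Huh7 had 15.4% falls and 17.3% rises, HepG2 10.8% and 10.2%, and Hep3B 9.78% and 10.2%, so the HepG2 counts were no higher than the background. ID1, the close relative of ID3, fell by 0.87 ± 0.25 in Huh7 and by 1.44 ± 0.22 in Hep3B (SE, limma, adjusted p = 0.012 and 8.2e-05), and its HepG2 value was 0.07. Without Huh7 COP1 siRNA replicate 3 the Huh7 value of ID1 was -0.37 (limma, adjusted p = 0.037). INHBE, an activin subunit made in liver, fell by 3.09 ± 0.20 in Huh7 (limma, adjusted p = 2.6e-10) with -0.18 in HepG2 and -0.20 in Hep3B. EGFR, the receptor of epidermal growth factor, fell by 0.90 ± 0.10 in Hep3B (limma, adjusted p = 1.2e-06), with 0.12 in HepG2 and -0.08 in Huh7.

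Metabolic enzymes higher in HepG2 were PC, PNPLA2, AGPAT2, PTDSS2, ALDH3B1 and MTHFS. PC, pyruvate carboxylase, which feeds gluconeogenesis, was at 8.12, 8.64, 7.98 and 7.88 in HepG2 against 7.32, 7.75, 7.58 and 6.94. In Huh7 it was at 8.59, 8.32 and 7.96 against 9.63, 9.68 and 9.92. The groups were apart in each line, with changes of -1.46, 0.76 and -0.91. A second PC probe had -1.70, 0.96 and -0.04, and so hardly changed in Hep3B. ALDH3B1, an aldehyde dehydrogenase that acts on lipid aldehydes, changed by -0.94, 1.00 and -0.96. PNPLA2, the triglyceride lipase ATGL, changed by -1.34, 0.63 and -0.39, and AGPAT2, an enzyme of phosphatidic acid synthesis, by -0.36 (-0.19 without Huh7 COP1 siRNA replicate 3), 0.78 and -0.50.

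Of junction proteins and receptors, CGN, the tight junction protein cingulin, measured 7.46, 7.55, 7.31 and 7.48 in HepG2 against 6.78, 6.29, 6.39 and 5.82. In Huh7 CGN was at 8.69, 8.36 and 7.75 against 9.31, 9.44 and 9.59. Its Hep3B arrays after COP1 siRNA were at or near the floor, between 5.00 and 5.08. The changes were -1.18, 1.13 and -0.72. AJUBA, a LIM protein that restrains the Hippo kinases, changed by -0.99, 0.81 and -0.62, and NOTCH1, a receptor of the Notch pathway, by -0.94, 0.64 and -0.51. PAQR7, a membrane progestin receptor, had the largest change of the class in HepG2, 1.29, from 7.09 ± 0.22 to 8.38 ± 0.43 (SD, n = 4).

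CD14, a coreceptor for bacterial lipopolysaccharide that monocytes carry and hepatocytes secrete, had changes of -2.34 in Huh7, 0.67 in HepG2 and -0.74 in Hep3B. A second CD14 probe had -1.96 in Huh7, 0.14 in HepG2 and 0 in Hep3B, and so did not show the fall in Hep3B. CD14 stood in a list of fibroblast, endothelium and leukocyte markers, 17 of which were on the array. Of these, 7 were at or below 32 on every Huh7 array, 10 on every HepG2 array and 11 on every Hep3B array, and PTPRC, CD3E, VWF and CDH5 were so on all 22. The summed intensity of the list in Huh7 ran from 969 to 1432 after COP1 siRNA and from 2584 to 2846 after control siRNA. Without CD14 the sums were 806 to 962 and 878 to 989. The HepG2 sums were 1287 to 1687 and 1300 to 1501, and those of Hep3B 1323 to 1565 and 1402 to 1577, so that these ranges overlapped.

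**Figure D4:**
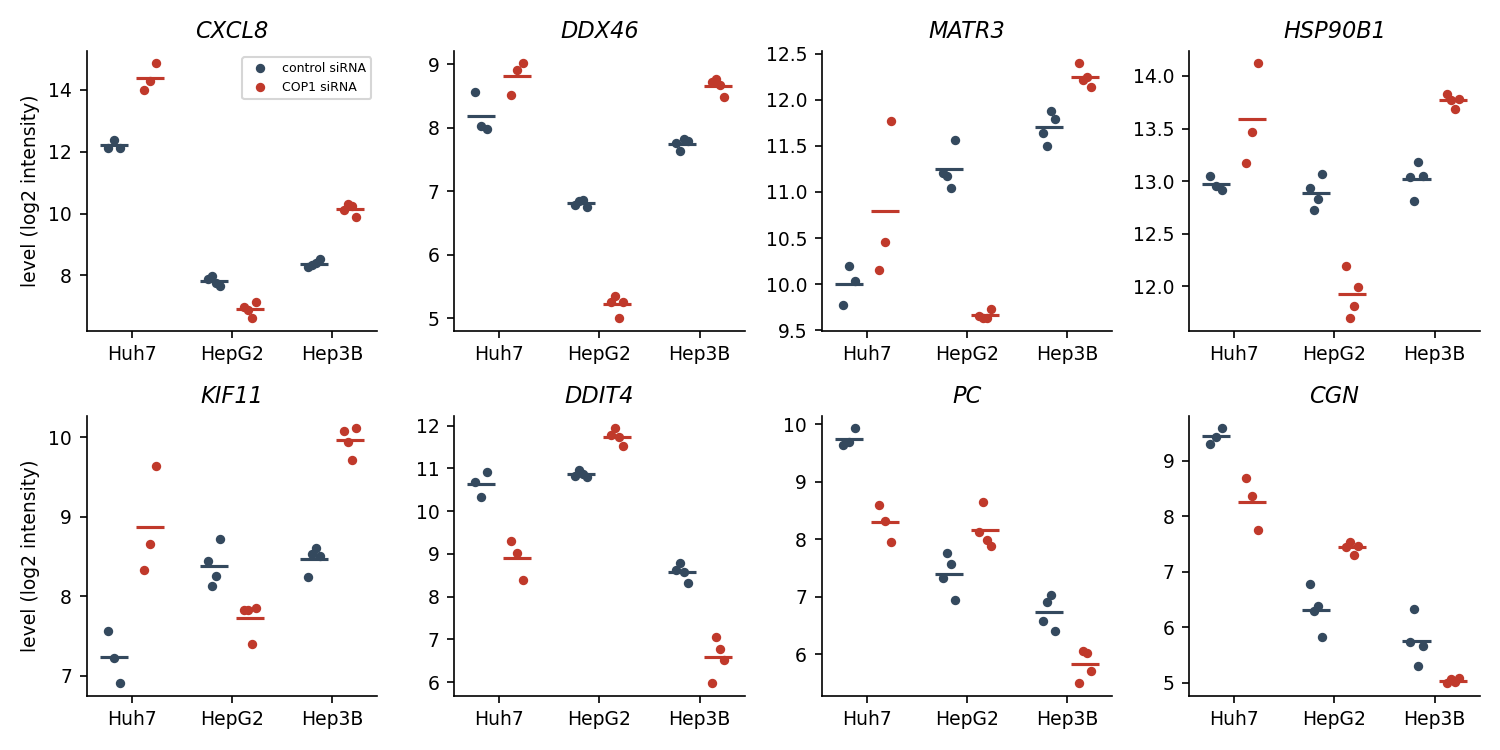
Log2 intensity of 8 members on every array (points) with the group mean (bar), by line, after control siRNA (dark) and COP1 siRNA (red). CXCL8, DDX46, MATR3, HSP90B1 and KIF11 lie lower after COP1 siRNA in HepG2 only, and DDIT4, PC and CGN higher there only; DDX46 and MATR3 overlap between groups in Huh7.

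Levels under control siRNA showed whether HepG2 differed from the other lines in these genes to begin with. Among the 212, HepG2 controls were higher than Huh7 controls in 67 and lower in 61 (limma on all probes, adjusted p under 0.05), or 31.6% and 28.8%, against 27.3% and 26.4% of all probes. Because most members were bright, probes above 32 in all 3 lines are the nearer background, and there the shares were 32.3% and 28.9%. Against Hep3B, 89 of the 212 were higher and 42 lower in HepG2, or 42% and 19.8%, where all probes had 27.8% and 31.3% and the brighter ones 31.2% and 34.5%. Between Hep3B and Huh7, 48 were higher and 86 lower in Hep3B, or 22.6% and 40.6%, where all probes had 32.9% and 30.2% and the brighter ones 37.2% and 32.9%. The control arrays also entered the rule, and a chance high value of a HepG2 or a low value of a Hep3B control favours selection, so these shares lean that way.

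The median control difference of the 212 was -0.02 for HepG2 minus Huh7 and 0.27 for HepG2 minus Hep3B, small beside their range of -4.39 to 4.72 and -1.88 to 4.77. The extremes against Huh7 were CXCL8, at 12.21 ± 0.14 (SD, n = 3) in Huh7 and 7.82 ± 0.14 (SD, n = 4) in HepG2, and HEY1, at 5.00 and 9.72 ± 0.13. HEY1 is at the floor in Huh7, so its difference is a lower bound. FST was at 8.50 to 8.67 in the HepG2 controls, and at or near the floor in those of Huh7 (5.00 to 5.69) and Hep3B (5.00 to 5.17), so no exact difference can be given. The levels of HSP90B1 did not pass in any of the 3 control comparisons, with differences of -0.08 to -0.13 for HepG2 and adjusted p of 0.52 and above (limma). Genes with like control levels and genes with very unlike ones were thus both among the members.

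In the 37, HepG2 controls were higher than Huh7 controls in 14 and lower in 10, or 37.8% and 27%. They were higher than Hep3B controls in 18 and lower in 14, or 48.6% and 37.8%. Of all probes, 27.3% were higher and 26.4% lower than in Huh7, and 27.8% higher and 31.3% lower than in Hep3B. The brighter probes had 32.3% and 28.9%, and 31.2% and 34.5%. For the 37, a chance low HepG2 control, or a high one in Huh7 or Hep3B, favours selection. Since the rule used these control arrays, the counts and the tests of single members lean that way. CGN, PC and CD14 were all lower in HepG2 than in Huh7 controls, by -3.12 ± 0.22, -2.35 ± 0.22 and -3.16 ± 0.27 (SE, limma, adjusted p = 1.5e-10, 8.1e-09 and 3e-09). DDIT4 differed by 0.23 ± 0.22 from Huh7 (adjusted p = 0.42, limma) and by 2.29 ± 0.20 from Hep3B (adjusted p = 3e-09).

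Taken as the mean of both siRNA groups, the level of a line also holds part of the change itself, so its direction follows from the choice of members. By that measure 135 of the 212 were lower in HepG2 than in Huh7 and 31 higher, against 32.6% and 32.2% of all probes, and 116 were lower and 46 higher than in Hep3B, against 36.2% and 31.2%. Nothing about the lines is read from these counts.

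The members differed from other genes in genomic span, which the rule did not use. The median span from first to last base of the gene was 51.8 kb for the 212 and 14.9 kb for the 37, and 28.6 kb for the 11077 genes tested that had coordinates. The genes tested were divided by span into 5 groups of equal size. In the shortest group, up to 8.98 kb, lay 12 of the 212, or 5.66%, and 13 of the 37, or 35.1%. Among all genes tested the shortest group had median changes of -0.10 in Huh7, 0.07 in HepG2 and -0.04 in Hep3B, and the fourth group, of 40.4 to 88.2 kb, 0.08, 0 and 0. The longest group, with 25% of the 212, had 0, 0 and 0. The medians of all genes thus differed little by span, and in HepG2 and Hep3B only the shorter groups were away from 0. The GC content of the promoter window had medians of 63.2%, 66% and 65%. Spans include introns, and spans, expression level and gene function vary together, so no single one is set apart here.

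**Figure D5:**
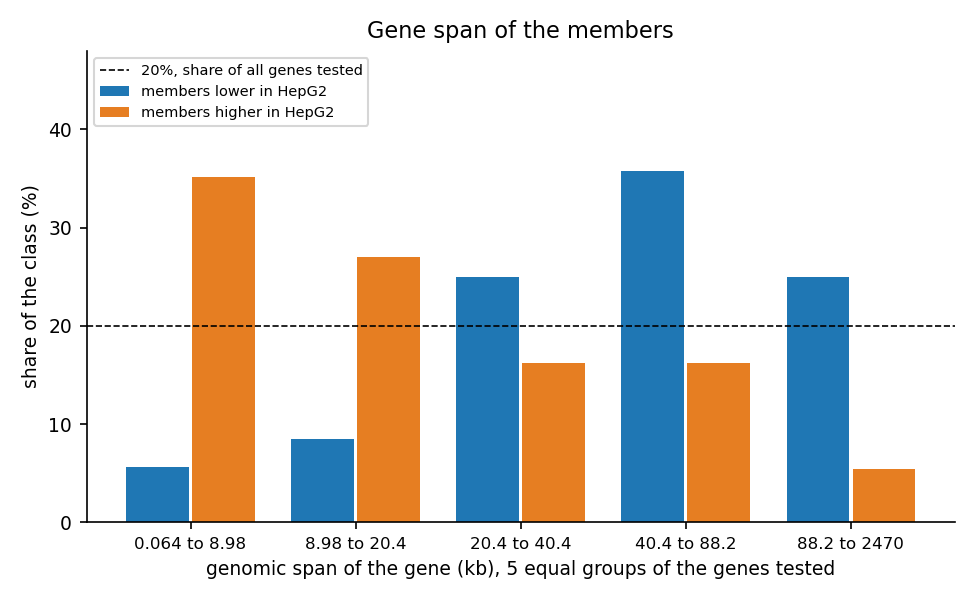
Bars give the share of each class (percent) in 5 equal groups of the genes tested by genomic span in kb, with the dashed line at 20%. The 212 members lower in HepG2 (blue) have 5.66% in the shortest group and 35.8% in the fourth, and the 37 higher in HepG2 (orange) have 35.1% in the shortest and 5.41% in the longest.

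By chromosome, 0 of the 212 lay on chromosome 19, which held 6.78% of the genes tested, and 0 on chromosome 22, with 2.35%. Chromosome 10 held 21 members or 9.91%, against 3.92%, and chromosome 4 held 20 or 9.43%, against 3.51%. Of the 37, 8 or 21.6% lay on chromosome 1, against 9.98% of the genes tested, and 7 or 18.9% on chromosome 11, against 6.08%. Some members were neighbours. PPAT and PAICS, both enzymes of purine synthesis, overlap on opposite strands of chromosome 4 in the RefSeq annotation, and SRP72 follows 3038 bases after PAICS. PPAT changed by 0.78, -0.74 and 0.79, and PAICS by 0.43, -0.34 and 0.33, with Huh7 changes of 0.47 and 0.07 without COP1 siRNA replicate 3. DHX29 and MTREX, whose shared upstream stretch is printed above, changed by 0.72 (0.33 without that array), -0.92 and 0.77 and by 1.27 (0.73 without that array), -0.54 and 0.87. EIF5B and REV1, a translesion polymerase, overlap at their ends by 850 bases on chromosome 2.

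Other probes of the same genes were on the array. Of 122 such probes, 89 were above 32 on at least 3 arrays, in 60 genes. Of the 89, 6 met the rule themselves and were thus used by it. Among the other 83, the signs matched those of the member probe in all 3 lines for 51, an opposite sign appeared in at least 1 line for 24, and 8 had a value of 0 in a line and no opposite sign. For 14 genes the brightest probe on the array was not the probe that was kept. A second probe of MATR3 changed by 0.11, -2.19 and 0.67 and thus by more in HepG2, and another by -0.35, -0.46 and 0.87, which is opposite in Huh7. For SON, a large protein of nuclear speckles, one further probe had 0.95, -0.44 and 0.56 and another 0.69, 0.18 and 0.14. A second probe of HNRNPA1, whose family has many near-identical copies in the genome, had -0.22, -0.14 and 0.25. ADGRG1, an adhesion receptor, had one probe with -1.26, 0.34 and -0.41 and one with 0.07, -0.04 and -0.14. Which transcripts each probe detects was not examined here.

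Intensity set a limit for the dim members. In all, 216 of the 249 were above 32 on all 22 arrays, 186 of the 212 and 30 of the 37, and the other 33 had at least 1 array at the floor, where a change is understated. At the threshold itself, NSUN5, an RNA methyltransferase, with a smallest change of 0.304, WDHD1 and HNRNPR, both with 0.307, were the members nearest to it. For NSUN5 and WDHD1 the smallest change was that in Huh7, which was 0.06 and -0.14 without Huh7 COP1 siRNA replicate 3. KIF2A with 0.29999 and ABHD12 and DNAL4, both with 0.29975, lay just outside.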

How the data were processed

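The values used are the deposited probe intensity on a linear scale, which the authors exported from GenomeStudio 2009.1, per the submitters' processing notes. From the values themselves, 23.7% of them below 0 and medians of 24.3 to 24.5 per array, background subtraction and quantile normalization between arrays had been applied by the authors before the values were deposited. A further table with 44 columns could not be tied to the sample labels and was not used here. Array number and signal over background, not sequencing depth, limit the precision.

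Values under 32 were set to 32 and log2 was taken (y). The rule of the opening paragraph was applied in Python 3.11.15. Models were fitted to y with limma 3.58.1 (R 4.3.3, lmFit and eBayes) for the 14700 probes above 32 on at least 3 arrays, with 6 group means, 16 residual degrees of freedom and Benjamini-Hochberg adjusted p-values over all probes within each of 7 contrasts. The threshold was 0.05. The 3 contrasts of line levels average both siRNA groups. A model of the control arrays' levels was planned as an alternative and is given beside them. The fit was checked on simulated data with known changes.

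Named genes are COP1, in each class the 10 members with the largest smallest change and the 5 with the largest change in HepG2, members of the 23 gene lists, up to 3 other genes per list with a member, those at the threshold, and members with a second probe of another sign. Further members serve as examples of role groups and were chosen after their values were seen. The members, lists and motifs were chosen with earlier results of these data known. Probes were named from the platform annotation and placed on GRCh38.p14 through RefSeq gene identifiers (21813 of 21834 named probes matched, and 2692 carried no symbol). Alternatives were the floor, normexp, the filter, array weights, separate fits, the replicate number as a block and each array left out.

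Same-numbered replicates were not treated as pairs. The labels say nothing of a shared culture or day.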

Additional observations from a re-analysis of the deposited data

Results flagged for a closer look

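Of 164 genes of the 8 lists that hold a member, but which are not members themselves, 54 or 32.9% had a response in HepG2 that differed from the mean response of Huh7 and Hep3B (limma, adjusted p under 0.05), near the 29.6% of all probes. The 3 with the smallest adjusted p of each list are named, 24 in all, so that 21 of these passed (adjusted p between 2e-07 and 0.01) follows from how they were picked. The 3 that did not pass were COL1A1, PECAM1 and COL1A2 among the markers of other cells.

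Among mitotic genes the difference of responses on the log2 scale was -1.52 for KIF23, -1.26 for CDK1 and 0.71 for CDC25B. Among chemokines it was 1.46 for CXCL16, which fell by 2.40 in Huh7, -1.10 for CXCL10, which rose by 2.21 in Huh7 and was at the floor in HepG2, and -0.64 for CXCL2. YAP and TEAD targets gave 1.31 for GADD45B, -1.32 for F3, the clotting initiator tissue factor, and -0.58 for CRIM1. F3 rose in all 3 lines, and its rise was 3.25 in Huh7 against 0.83 in HepG2 and 1.05 in Hep3B. Cytoskeletal and matrix genes gave 1.43 for TAGLN2, -1.11 for ACTG2 and -1.56 for ITGA2, the alpha-2 integrin subunit. In the growth factor list INHBE had 1.46, EGFR 0.61 and ID1 1.22. Lysosome and autophagy genes gave 0.82 for ATG9A, 0.53 for CTSD and -1.16 for ATG5, and the ATF4 list 1.78 for NUPR1, 0.86 for SLC7A5 and 1.12 for PHGDH.

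Single arrays passed Dixon's test at the 95% level in 10 of 236 groups of 4, where chance gives about 1 in 20. In the HepG2 controls these were KPNA4 at 9.81 and ITGB1 at 11.88 on replicate 3, both the lowest of their group, and ADGRG1 at 10.72 on replicate 2. After COP1 siRNA in HepG2 they were DEK at 10.32 on replicate 2, KIF11 at 7.39 and IL17RC at 6.90 on replicate 3, and MRE11 at 5.80 and WDHD1 at 5.22 on replicate 4. In Hep3B they were FST at 5.17 on control replicate 2 and BAD at 9.54 on COP1 siRNA replicate 4. For FST and WDHD1 the other 3 arrays were tied at the floor of 5, which makes any value above it pass. None of these arrays was left out.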

How the results depend on the processing

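The number of members, 249, became 106 with a smallest change of 0.5 and 139 when separation in Huh7 was also asked for. Between 200 and 322 were found under the other settings of floor, background correction, threshold and probe order. Leaving out 1 array gave 161 (without Huh7 COP1 siRNA replicate 3) to 364 (without HepG2 control replicate 3). The 4811 probes called in Huh7 became 2026 with array weights and 1089 when Huh7 was fitted alone, and the 2933 of Hep3B became 5203 with array weights. The cause was not tested. Every other count over all probes stayed within 1.5 times its value.

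Of 1767 recomputed changes of named members, 1685 moved by less than the spread between replicates, 76 moved by more and 6 turned. IL17RC became 0.0183 in Huh7 with a floor of 64. With arrays left out in turn, Huh7 changes ranged from -0.0199 to 0.6255 for ZBTB33, -0.1597 to 0.6249 for HERC4, -0.138 to 0.622 for WDHD1, -0.6986 to 0.1866 for ID3 and -0.4943 to 0.059 for NSUN5, the turned end always without COP1 siRNA replicate 3. Control levels alone changed the split of members between higher and lower, as printed in the report.

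The replicate number did not pair the arrays. Deviations of same-numbered arrays correlated between -0.29 and 0.08 in 11 pairs, 0 of them over 0.1, and 1 was best with its own number. With that number as a replicate block, 4643 probes were called in Huh7, 2954 in HepG2, 2714 in Hep3B and 4128 in the difference of responses, against 4811, 3088, 2933 and 4344.

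Changes of dim members depend on the floor. With a floor of 64 FST had 0 in Hep3B, HEY1 had 0 in both Huh7 and Hep3B, and CGN had -0.08 in Hep3B.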

Other observations

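Some gene lists held no member, where 249 of the 11087 genes tested were members. Of 25 tested hepatocyte markers, the response of HepG2 was above the mean of the other lines in 12 and below in 1 (limma, adjusted p under 0.05 over all probes, where 13.9% and 15.7% were). In Huh7, 12 of the 25 fell and 0 rose, and in HepG2 6 rose and 2 fell. Of all probes, 15.4% fell and 17.3% rose in Huh7, 10.8% fell and 10.2% rose in HepG2, and 9.78% fell and 10.2% rose in Hep3B. Among 12 hepatocyte transcription factors, 9 fell in Huh7 and 1 each in HepG2 and Hep3B. Several of these markers were at the floor in Hep3B, where no change could be seen. Of 26 interferon-stimulated genes, HepG2 had 10 rises and 0 falls, Huh7 10 rises and 4 falls, and Hep3B 1 rise, with list medians of 0.55, 0 and 0.

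Of 22 AP-1 subunits and immediate early genes, Huh7 had 11 rises and 1 fall, HepG2 4 rises and 1 fall, and Hep3B 0 rises and 3 falls. The response of HepG2 was higher in 4 and lower in 2 of the 22, near the shares of all probes. None was a member.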
